A study of Homo sapiens with 6 samples.

Results

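The genes described here are those whose transcripts begin at 5 or more separate places in the merged transcript assembly of EndoC-βH1 cells, an established human pancreatic beta cell line. The assembly gives each transcript model a start site group, and models that begin at the same place share a group. On chromosomes 1 to 22 and X, 88 of 25088 gene names (0.351%) had at least 5 such groups at a single locus. Of these, 51 genes had 5 groups, 19 had 6, 9 had 7, 7 had 8 and 2, BDNF and GHR, had 9. Together the 88 genes held 506 start groups and 974 transcript models. By comparison, 21484 gene names had 1 start group, 2643 had 2, 676 had 3 and 197 had 4. Genes just below the threshold, with 4 groups, included PAX6, RAB27A, ESR1 and ANK3.

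The study prepared 6 RNA libraries from EndoC-βH1 cells that carried, by lentiviral transduction, an inducible hairpin RNA directed at the promoter of INS, the insulin gene. In 3 libraries the hairpin was induced with doxycycline at 1 mg/mL, with day 7 given as the doxycycline day. The 3 negative control libraries received no doxycycline. Hairpin induction and doxycycline therefore coincide, and the effects of each cannot be told apart. The data examined here are the transcript models of all 6 libraries merged into 1 set, which carries no abundance. Sequencing depth, the use of each start in the cells, the level of beta cell markers and changes on induction were not analysed here.

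A gene with several promoters makes transcripts that share most exons and differ in the first. The choice of promoter can place the gene under a different control region and change only the 5′ untranslated leader, or it can begin the protein at another start codon and so remove or replace its N-terminal part. BDNF, the brain-derived neurotrophic factor, is a textbook case of the former, and DMD, the gene of dystrophin, is a textbook case of the latter. All but 1 of the 506 start groups held at least 1 reference transcript, that is, a model identical in its introns to a RefSeq transcript. The starts described are thus almost entirely those of RefSeq, and the presence of a start in the assembly is no measure of its use.

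The 60 bases just upstream of 8 of the 9 starts of BDNF are shown because its 9 starts lead mostly to the same protein from very different sequence. BDNF lies on the minus strand at chr11:27676442-27743605 (GRCh37, the same as hg19). Starts are numbered from the most upstream, sequences run 5′ to 3′ on the gene's strand up to the base before the start, and capitals mark each CG dinucleotide.
BDNF start 1, chr11:27743606-27743665: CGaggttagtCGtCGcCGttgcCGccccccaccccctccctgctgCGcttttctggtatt
BDNF start 2, chr11:27742327-27742386: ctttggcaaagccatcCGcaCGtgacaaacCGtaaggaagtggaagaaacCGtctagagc
BDNF start 3, chr11:27741295-27741354: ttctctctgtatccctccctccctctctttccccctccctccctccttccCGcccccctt
BDNF start 4, chr11:27723181-27723240: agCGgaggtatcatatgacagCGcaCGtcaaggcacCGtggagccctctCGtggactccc
BDNF start 5, chr11:27722601-27722660: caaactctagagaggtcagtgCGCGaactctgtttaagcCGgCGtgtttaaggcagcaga
BDNF start 6, chr11:27722448-27722507: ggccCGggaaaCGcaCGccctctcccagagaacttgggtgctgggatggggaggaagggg
BDNF start 8, chr11:27721215-27721274: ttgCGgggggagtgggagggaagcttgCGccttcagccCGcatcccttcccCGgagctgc
BDNF start 9, chr11:27681197-27681256: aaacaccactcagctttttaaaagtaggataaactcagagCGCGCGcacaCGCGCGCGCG
Starts 1 to 3 lay within 2311 bases of each other, starts 4 to 8 formed a second cluster with steps of 153 to 821 bases, and start 9 followed 40018 bases further on. Among the stretches shown, the number of CG dinucleotides ranged from 1 at start 3 to 8 at start 9. Most of those at start 9 stand in a run of alternating C and G next to the start. The 60 bases of start 7, which are not shown, also held 8, with a GC content of 78.3%.

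The starts of DMD are shown for the opposite reason, since none of its 17 coding sequences is made from more than 1 of the 7. DMD lies on the minus strand at chrX:31137345-33357726. As textbook background, starts 1 to 3 are those of the full-length dystrophins of cortex, muscle and Purkinje cells. Starts 4, 5 and 6 serve the shorter forms first described in retina, in brain and kidney and in Schwann cells, and start 7 serves the short form found in most tissues.
DMD start 1, chrX:33357727-33357786: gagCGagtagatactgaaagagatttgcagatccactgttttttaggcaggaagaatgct
DMD start 2, chrX:33229674-33229733: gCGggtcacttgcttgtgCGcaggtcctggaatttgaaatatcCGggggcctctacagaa
DMD start 3, chrX:33146546-33146605: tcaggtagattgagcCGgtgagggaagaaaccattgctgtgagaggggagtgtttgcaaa
DMD start 4, chrX:32430372-32430431: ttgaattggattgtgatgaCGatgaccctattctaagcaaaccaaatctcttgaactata
DMD start 5, chrX:32173587-32173646: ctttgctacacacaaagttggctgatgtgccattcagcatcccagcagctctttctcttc
DMD start 6, chrX:31526416-31526475: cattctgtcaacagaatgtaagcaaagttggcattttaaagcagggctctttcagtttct
DMD start 7, chrX:31285025-31285084: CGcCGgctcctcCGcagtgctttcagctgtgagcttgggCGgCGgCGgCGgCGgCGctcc
The 60 bases held 0 to 3 CG dinucleotides at starts 1 to 6 and 9 at start 7, most of them in a run of repeated CGG. GC content of these 60 bases was between 35% and 55% at the first 6 starts and 76.7% at start 7.

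Only 3 of the 506 starts (0.593%) had the letters TATAAA on the sense strand 40 to 20 bases upstream, the usual place of a TATA box. The share was 1.72% at the starts of genes with 1 group and 1.40% over all start groups of the 25088 gene names. The 3 starts are shown with TATAAA in capitals, all of them on the plus strand. These genes are named after their values were seen. FHL1 encodes a LIM domain protein of muscle, ARPP21 a phosphoprotein regulated by cyclic AMP, and PRKACB a catalytic subunit of protein kinase A.
FHL1 start 6, chrX:135278853-135278912: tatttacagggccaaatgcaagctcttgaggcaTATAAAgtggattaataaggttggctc
ARPP21 start 6, chr3:35722369-35722428: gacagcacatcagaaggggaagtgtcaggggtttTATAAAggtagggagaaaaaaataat
PRKACB start 5, chr1:84647283-84647342: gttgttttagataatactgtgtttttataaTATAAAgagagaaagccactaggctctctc
In FHL1 and ARPP21 the TATAAA stood at start 6, and in PRKACB at start 5. None of these is the most upstream start of its gene.

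The distance between neighbouring starts varied from 104 to 908460 bases, with many starts close together and a long tail. The median distance between neighbouring starts was 3218.5 bases (95% interval of the median 1543 to 5051, n = 418), with quartiles of 510.5 and 35033 bases. Joining starts closer than 1000 bases moved it to 35659 bases. It was 1934 bases in genes with 2 groups (1687 to 2240), 1932 bases with 3 (1494 to 2593) and 3455 bases with 4 (2317 to 5639). The interval for 5 or more groups overlapped each of these. Of the 418 distances, 39.5% were under 1000 bases, against 41.1%, 41.0% and 35.0% in genes with 2, 3 and 4 groups. At the other end, 44 distances (10.5%) exceeded 100 kb, against 6.02%, 6.21% and 9.98%.

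The span from the first to the last start had a median of 49.4 kb (34.8 to 90.5, n = 88), against 1.93 kb with 2 groups, 11.9 kb with 3 and 28.7 kb with 4. A larger span follows in part from counting more starts. The genes themselves were also longer, with a median of 98.1 kb against 14.5 kb in genes with 1 group, and the starts spanned a median of 59.4% of the gene. In 54 of the 88 genes they spanned over 50% of it. Of the 418 starts below the most upstream, 371 (88.8%) lay in an intron and 47 (11.2%) in an exon of a model from another group of the same gene.

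**Figure D1:**
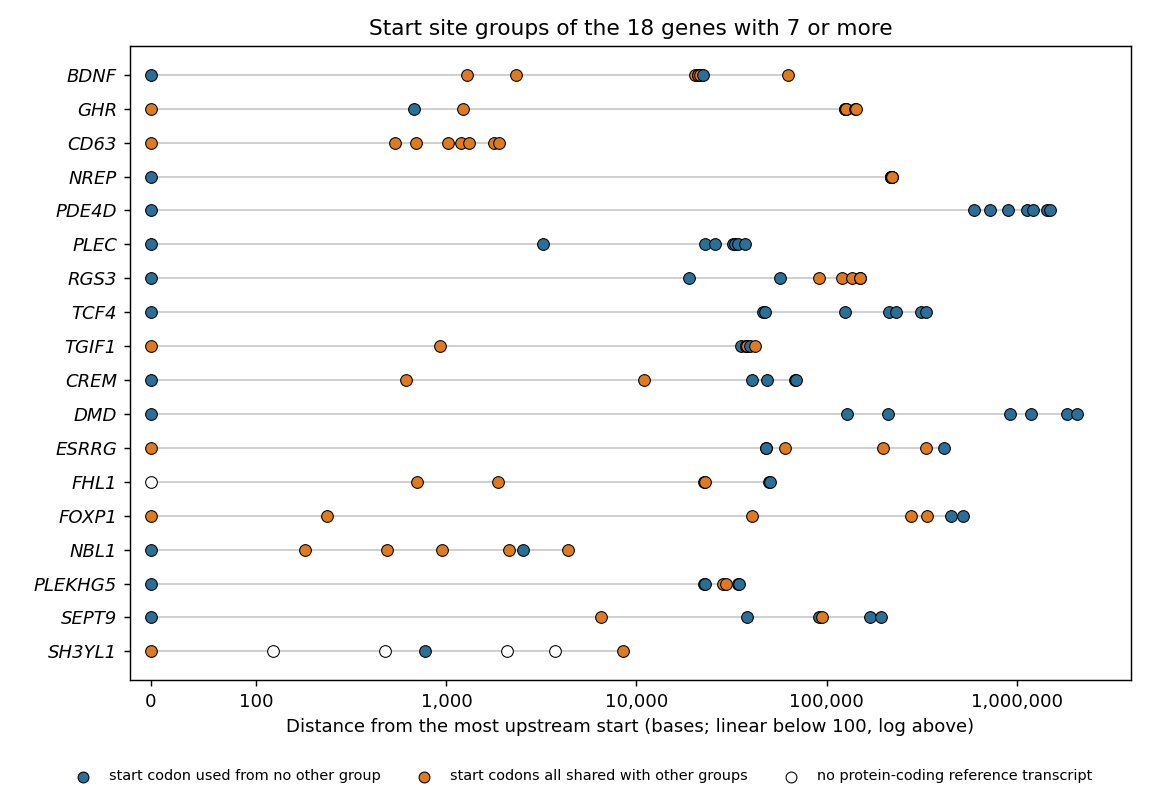
Each row is a gene with 7 or more start site groups, and each point is a group at its distance in bases from the most upstream start (linear below 100, logarithmic above); colour tells whether the group has a start codon used from no other group. CD63 keeps its 8 starts within 1885 bases, while those of DMD reach 2072702 bases and are all blue.

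The widest spans belonged to very large genes. The 7 starts of DMD covered 2073 kb, and the largest step between them, from start 3 to start 4, was 716 kb. The 5 starts of DLG2, a scaffold protein of synapses, covered 1945 kb. PDE4D, a phosphodiesterase that breaks down cyclic AMP, had 8 starts over 1488 kb, with steps of 39580 to 594304 bases. KCNIP4, a potassium channel interacting protein, had 6 starts over 1098 kb, and NRG1, the growth factor neuregulin, 5 over 1082 kb. The step of 908 kb from start 1 to start 2 of NRG1 was the longest among the 88 genes.

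The narrowest spans were of another order. CD63, a tetraspanin of lysosomes and exosomes, had 8 starts within 1885 bases, with steps of 112 to 535 bases. RAD17, a loader of the DNA damage checkpoint clamp, had 6 starts within 2157 bases, and RNF145, a ubiquitin ligase, 5 within 2405 bases. Spans were under 10 kb in 19 genes and over 100 kb in 34. In CD63, 2 of the 7 downstream starts lay in an exon of another group's model and 5 in an intron.

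GHR, the growth hormone receptor, combined both scales. Its 9 starts covered 142 kb of chr5:42423877-42721980 on the plus strand. Starts 1 to 3 lay within 1217 bases, followed by a gap of 123 kb, then starts 4 to 7 with steps of 170 to 1343 bases, and starts 8 and 9, 403 bases apart, 15381 bases further on. The median step was 608.5 bases, so a median of steps alone does not show the long gap. NREP, a small protein linked to nerve regeneration, had a similar form, with 8 starts of which the largest step was 219 kb and the median step 159 bases. TGIF1, a homeodomain repressor of TGF-beta targets, had a median step of 1233 bases and a largest step of 34.7 kb.

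**Figure D2:**
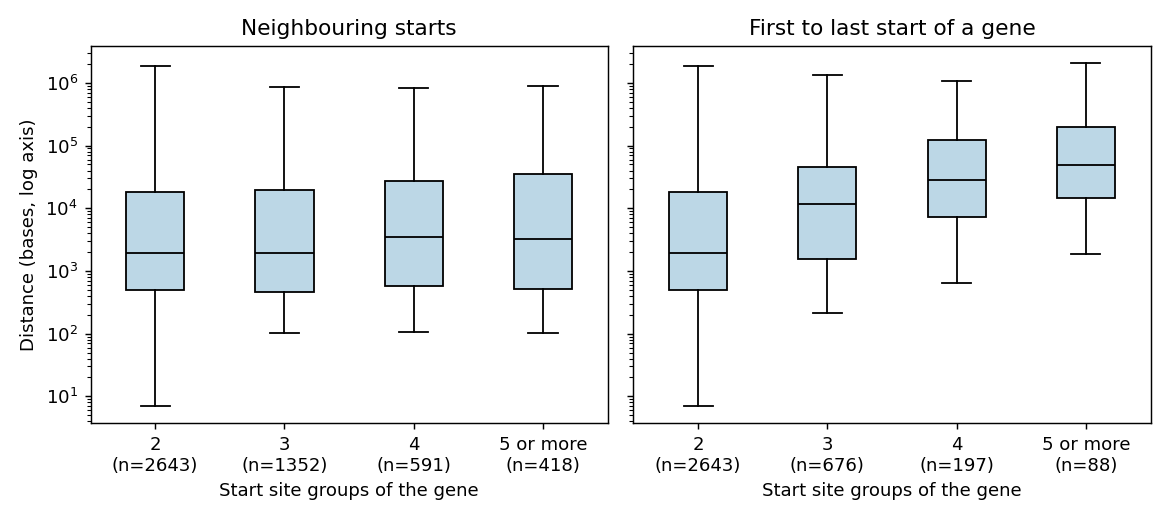
Box plots on a log axis of the distance in bases between neighbouring starts (left) and between the first and last start of a gene (right), by number of start groups, with median, quartiles and whiskers to the lowest and highest value. Medians of neighbouring starts lie between 1932 and 3455 bases in all 4 classes, while the median span rises from 1934 to 49397.5 bases.

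In the assembly each distinct coding sequence has an identifier, p_id, carried by protein-coding reference transcripts and by no joined model. The 86 genes with a protein-coding transcript had a median of 5 such identifiers (interval of the median 4 to 5, range 1 to 26). In 51 of them (59.3%, exact 95% interval 48.2 to 69.8%) there were fewer coding sequences than start groups, in 10 as many, and in 25 more. The share with fewer was 23.2%, 39.4% and 40.7% in genes with 2, 3 and 4 groups. It depended on how starts are counted: after starts closer than 1000 bases were joined, 35 genes remained at 5 or more and 25.7% of them had fewer, and with a threshold of 4 groups the share was 46.4%. Having fewer coding sequences than groups is also easier to meet by definition the more groups a gene has. With 2 groups it requires exactly 1 coding sequence, and with 1 group it cannot occur, so the shares of the classes are not alike in kind. Of the 21484 genes with 1 start group, 15678 had a p_id, and 72.8% of those had exactly 1. ZNF503-AS2 and LOC374443, the 2 non-coding members, had none.

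Because genes with more starts also had more reference transcripts, a median of 8 against 1, coding sequences were also counted per transcript. The 88 genes had 65.5 identifiers per 100 protein-coding transcripts, against 93.8 in genes with 1 start group and 79.1, 73.1 and 71.7 with 2, 3 and 4. At equal numbers of protein-coding transcripts it was also lower than with 1 start group. With 5 to 6 such transcripts it was 64.1 against 85.7, with 7 to 9 it was 66.3 against 82.4, and with 10 or more it was 65.2 against 87.1, each time for 5 or more groups against 1 group. The other classes kept no fixed order, and genes with 2 groups and 10 or more such transcripts had 55.7, the lowest value. Transcripts of different groups are distinct by their start alone. Those of the same group differ in the extent of the first exon or in later exons. BDNF, for example, had 14 distinct reference first exons for 9 groups. Whether this bears on the lower ratio was not tested.

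**Figure D3:**
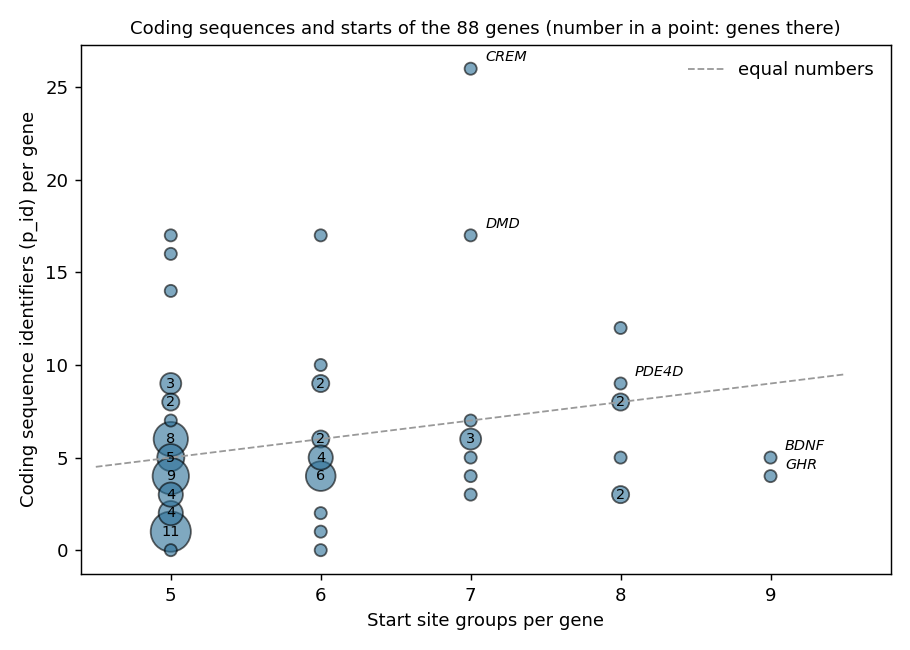
Number of coding sequence identifiers (p_id) against number of start groups for the 88 genes; point area and the number inside give how many genes share a place, and the dashed line marks equal numbers. There are 51 coding genes below the line and 25 above it, with CREM highest at 26.

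At the low end, 12 genes (13.95%) had 1 coding sequence identifier for all their starts. ZNF331, a zinc finger protein, had 6 starts over 34.4 kb and a single longest reading frame of 463 amino acids. HNRNPF, an RNA-binding protein, had 5 starts over 12.4 kb with a frame of 415 amino acids. CARHSP1, a cold shock domain protein, and KCNE1, a potassium channel subunit, also had 5 starts and 1 identifier, but not a single longest frame. It was 179 or 234 amino acids in CARHSP1 and 132 or, from start 5, 150 in KCNE1. YWHAZ, a 14-3-3 protein, had 5 starts within 2824 bases and a frame of 245 amino acids from each. Others were TRPV1, SOCS2, S100A13, SLC16A3, MYADM and PRKAR1B. The median span of these 12 genes was 7.29 kb and none exceeded 100 kb, whereas the 25 genes with more coding sequences than starts had a median span of 197 kb and 18 of them exceeded 100 kb.

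At the high end stood CREM, the cyclic AMP responsive modulator that makes both activators and repressors. It had 26 coding sequences from 7 starts over 69.1 kb, and no coding sequence was shared between starts. The longest frames ran from 221 to 300 amino acids from start 2 and 236 to 299 from start 3. They were shorter from start 6, at 75 to 121, and from start 7, at 102 to 125. Starts 1, 4 and 5 gave wide ranges of 116 to 248, 131 to 282 and 98 to 245. DMD, NRG1 and DTNA, the last encoding the dystrophin partner dystrobrevin, had 17 coding sequences each, and OPRM1, the mu opioid receptor, had 16.

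Over all 86 coding genes, 272 of 485 coding start groups (56.1%, 51.5 to 60.6%) had a coding sequence found from no other group. For the other 213 every coding sequence was also made from another start. Of the 478 coding sequences, 73 (15.3%) were shared by several starts, and in 27 genes none was. Start groups of a gene are not independent, so the intervals here and below cover counting error only.

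The reading frames read from the genome show what the starts change. A frame is here the longest stretch from ATG to a stop on the spliced genome sequence, and it was not compared with the annotated coding sequence. In 475 of the 478 coding sequences all transcripts had the same frame, which holds by construction where a coding sequence has 1 transcript. Of the 485 coding groups, 227 (46.8%) had a start codon, that of a frame, used from no other group. These include start 5 of KCNE1 and start 5 of CARHSP1, although each of these genes had 1 coding sequence identifier. The share of groups with such a start codon was 57.8% at the most upstream start, 41.1% at starts in between and 57.0% at the most downstream start. The start codon lay in the first exon in 42.2%, 37.97% and 62.8% of groups at these positions. In 64 of the 86 genes all frames ended at the same stop codon, so their proteins differ at the N-terminal side or by internal exons. In 25 genes the longest frame was over 2 times as long as the shortest.

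In 20 genes every coding start had a start codon of its own. Frame lengths are given for those of them with 7 or more starts. The full-length starts 1, 2 and 3 of DMD gave frames of 3677, 3685 and 3562 to 3681 amino acids. Start 4 gave 2341 to 2344, start 5 gave 1115 to 1243, start 6 gave 970 and start 7 gave 340 to 635. PDE4D gave 748, 809, 745, 673, 687 and 679 amino acids from starts 1 to 6, 507 to 585 from start 7 and 518 from start 8. PLEC, the cytoskeletal linker plectin, had 8 starts within 37.2 kb, each with its own start codon and a frame of 4515 to 4684 amino acids. TCF4, a transcription factor of the E protein family, gave 773 from start 1 and 507 from start 8. No course of frame length along position was measured over the 20 genes, and in RNF145 the frames were 693, 663, 680, 691 and 677 amino acids from starts 1 to 5. The median span of the 20 genes was 193 kb, and 15 of them exceeded 100 kb.

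In other genes some or most starts shared a start codon. From 6 of the 9 starts of BDNF the only frame was the precursor of 247 amino acids. Starts 1 and 8 gave 255 and 262 amino acids from start codons in their own first exons, and the 4 transcripts of start 5 gave 247 to 329. GHR gave 638 amino acids from starts 1 and 3 to 8, 638 and 645 from start 2, and 295 to 616 from start 9. The start codon of start 9 was shared with another start and lay in the first exon. A start codon in the first exon also occurred at starts 2 and 8. CD63 gave 238 amino acids from starts 1 to 5, 215 from start 6 and 156 from starts 7 and 8. NREP gave 102 to 112 amino acids from its far upstream start and 68 from each of the other 7. RGS3, a regulator of G protein signalling, ranged from 1198 amino acids at start 1 to 168 at starts 5 and 8. RAD17 gave 670 from starts 1 to 4, 505 to 584 from start 5 and 681 from start 6.

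Several functional groups of genes were looked at for how many of them belong to the 88. Of 36 genes known from textbooks for alternative promoters, 6 did (16.7%), with a median of 2 start groups per listed gene, against 0.351% and a median of 1 over all genes. They were led by BDNF with 9, CREM and DMD with 7 and FGF1, a fibroblast growth factor, with 6. This list was drawn up for the property itself, so its share is no independent result. Of 28 genes of the dystrophin complex and of giant cytoskeletal linkers, 3 belonged (PLEC, DMD and DTNA, with 8, 7 and 6 groups), while ANK3, an ankyrin, had 4. Of 21 phosphodiesterases, PDE4D with 8 and PDE4A with 5 belonged, and PDE11A and PDE1A had 4 each. Of 31 genes of synaptic scaffolds and adhesion, DLG2 and NRG1 belonged with 5 each.

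None of 24 transcription factors of beta cells belonged, which at 0.351% over all genes says nothing about that list. PAX6, a regulator of islet development, came nearest with 4 starts within 6819 bases, followed by RFX3 with 3, and 18 of the 24 had 1 start. Of 33 genes of granules, exocytosis and excitability, CACNB2, a calcium channel subunit, alone belonged (3.03%), with 5 starts over 260 kb and 9 coding sequences. RAB27A, which docks granules, had 4 starts, and SLC30A8, which loads granules with zinc, had 3. Of 48 nuclear receptors, ESRRG belonged with 7 starts over 414 kb, and ESR1, NR2F2 and RARB had 4 each. Of 20 housekeeping genes YWHAZ belonged, and 16 of the 20 had 1 start.

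Besides reference transcripts, the assembly holds joined models, which share splice junctions with a reference transcript but have an intron chain that no reference transcript has. At least 1 joined model was present in 53 of the 88 genes (60.2%, 49.2 to 70.5%). The background was 12.4% of all 21399 gene names with a multi-exon reference transcript, and 6.42% of the 17801 such names with 1 start group. Joined models were more frequent in genes with more reference transcripts, and 73.8% of genes with 1 start group had a single one. The comparison was therefore repeated at equal numbers of reference transcripts, where the excess did not hold throughout. With 5 to 6 reference transcripts, 10 of 33 genes had a joined model (30.3%, 15.6 to 48.7%), against 51.3% (46.6 to 56.0%) in genes with 1 start. With 7 to 9 it was 21 of 31 (67.7%, 48.6 to 83.3%) against 59.9% (51.3 to 68.0%). With 10 or more it was 21 of 23 (91.3%, 72.0 to 98.9%) against 76.8% (63.6 to 87.0%). All 3 pairs of intervals overlapped.

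**Figure D4:**
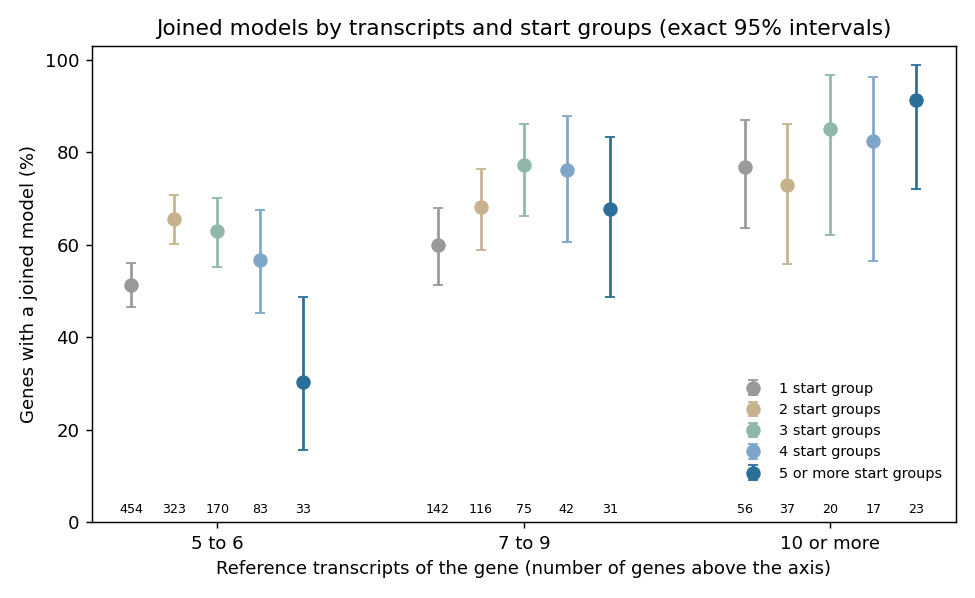
Percent of genes with at least 1 joined model, by number of reference transcripts (x axis) and number of start groups (colour), with exact 95% intervals and the number of genes above the axis. For 5 or more start groups the share goes from 30.3% to 91.3% and is below that of genes with 1 start group in the first class and above it in the last.

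The 202 joined models were unevenly spread. There were 35 genes with none, among them PDE4D, PLEC, NREP, TGIF1, KCNIP4 and RNF145, 13 with 1, and 15 with at least 5. SORBS2, an adaptor of the actin cytoskeleton, had 14, PLEKHG5, a guanine nucleotide exchange factor, and OPRM1 had 13 each, FOXP1, a forkhead transcription factor, had 10, GHR and TCF4 had 9 each, and DMD had 8. BDNF and CD63 had 1 each despite 9 and 8 starts.

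Most joined models combined a known start with introns from transcripts of another start. Of the 202, 200 began in a start group that held a reference transcript, and 186 (92.1%) had a first exon identical to that of a reference transcript. In 187 (92.6%) every intron occurred in reference transcripts of the gene, but in only 20 (9.90%, 6.15 to 14.9%) did every intron occur in reference transcripts of the same start. That share was 28.3%, 14.5% and 19.6% in genes with 2, 3 and 4 starts. In genes with 1 start it was 93.3%, where no intron can come from another start by construction. For 365 of the 506 groups the single reference transcript of the group leaves few other outcomes, and among the 75 joined models from groups with at least 2 it was 21.3% (12.7 to 32.3%). The first intron was nevertheless that of the model's own start in 189 models (93.6%).

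Sorting the 202 by introns and 3′ end together, 140 (69.3%, 62.4 to 75.6%) took introns from another start and ended at a 3′ end that reference transcripts of their own start use. A further 27 (13.4%) also ended where no reference transcript of their own start ends, and 11 (5.45%) had only introns of their own start but the 3′ end of another. In 9 (4.46%) introns and 3′ end were all of the own start, against 25.8%, 11.9% and 17.03% with 2, 3 and 4 starts. The remaining 15 (7.43%) held introns of no reference transcript of the gene.

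The same exchange could recur from start to start of a gene. Of the 40 genes with at least 2 joined models, 31 had them at more than 1 start. In 23 of these 31 an intron or 3′ end foreign to the start occurred in joined models from more than 1 start, and in 16 from at least 3 starts. In DMD all 8 joined models kept the introns of their own start and replaced only the end. Its reference transcripts ended in an exon of 2703 bases (chrX:31137345-31140047), except for the shortest one from start 7, which had 9 exons and ended in an exon of 611 bases (chrX:31196312-31196922). Each joined model ended in this 611-base exon, 1 from each of starts 1, 2, 5 and 6 and 2 from each of starts 3 and 4. They had 70 exons from starts 1 to 3, 42 from start 4, 27 from start 5 and 16 from start 6. Their reference counterparts had 79, 51, 31 to 36 and 25. The only start without a joined model was start 7, from which the short end is a reference transcript already.

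GHR showed the exchange in an intron. Of its 9 joined models, which arose from 6 starts, 8 carried the intron chr5:42713622-42718554, found among reference transcripts only from start 9. In FOXP1 all 7 starts had a joined model, and 8 of the 10 models carried the intron chr3:71019957-71021161, which occurs in reference transcripts from start 1 alone. In TCF4, 6 of 9 carried the intron chr18:52896308-52899751, present in reference transcripts from 5 of the 8 starts but not from the start each model began at. SORBS2 was more varied, with 18 distinct introns foreign to the start they were joined to, the most frequent in 7 of 14 models.

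In OPRM1 all 13 joined models began at start 1 of 5. The same held for all joined models of 8 of the 40 genes with at least 2, OPRM1 included. That start held 3 reference transcripts and start 3 held 11. The 13 models carried 11 distinct introns foreign to start 1, none in more than 3 models, and among them were 7 distinct last exons whose ends no reference transcript of start 1 uses. No intron or end foreign to start 1 could therefore recur from another start.

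In 2 genes the joined models ran into a neighbour. All 13 joined models of PLEKHG5 carried introns of TNFRSF25, a death receptor gene of the same locus, and 12 of them ended in the exon chr1:6521214-6521822, which is no last exon of a PLEKHG5 reference transcript. They came from all 7 starts of PLEKHG5. Both joined models of TRPV1, a heat-gated ion channel, carried introns of SHPK, a sugar kinase gene of the same locus, and began at a start that no TRPV1 reference transcript uses. Without that start TRPV1 would have 4 start groups. These 15 models are all those with an intron outside the reference transcripts of the gene.

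The share of starts with a joined model was highest at the most upstream position. A joined model was present at 37 of 88 most upstream starts (42.05%, 31.6 to 53.05%), 76 of 330 starts in between (23.03%, 18.6 to 27.96%) and 16 of 88 most downstream starts (18.2%, 10.8 to 27.8%). The number of reference transcripts per start was similar at 1.52, 1.55 and 1.44. Per 100 reference transcripts there were 52.2, 22.1 and 14.96 joined models. The 13 models of OPRM1 are 13 of the 70 at most upstream starts.

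**Figure D5:**
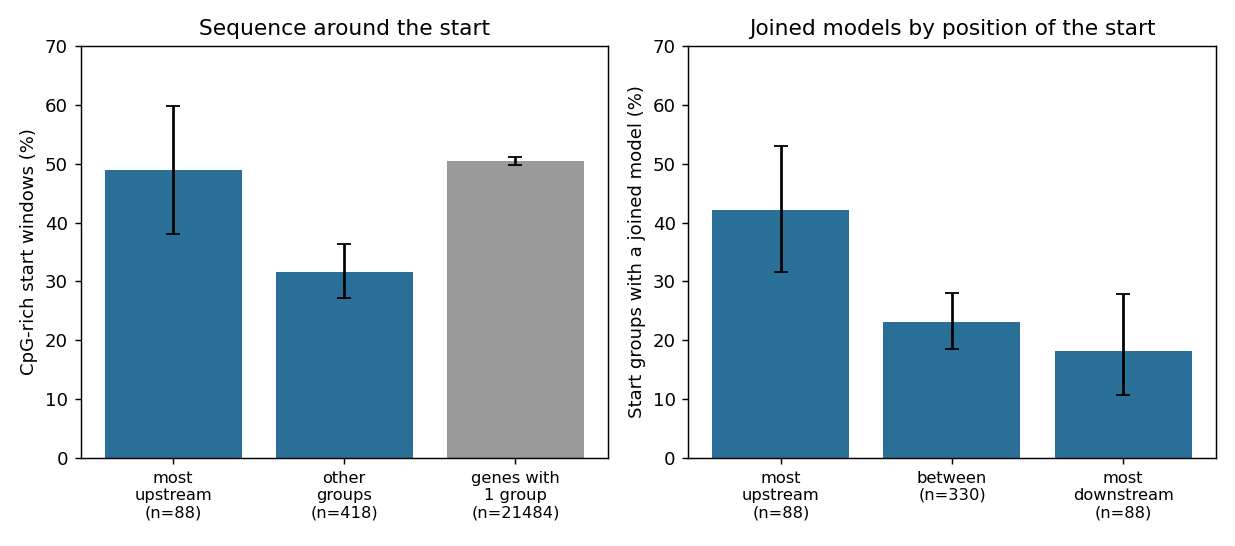
Left, percent of start windows rich in CpG at the most upstream start, at the other starts and in genes with 1 start group; right, percent of start groups with a joined model by position, both as bars with exact 95% intervals. The most upstream starts are higher than the others in both panels, at 48.9% against 31.6% and 42.05% against 23.03% and 18.2%.

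The most upstream starts were CpG-rich about as often as the starts of genes with a single group, and the share was lower at the other starts. Differences between positions were not tested. A window of 300 bases, from 250 before the start to 50 after it, was called CpG-rich when its GC content exceeded 50% and its observed to expected CpG ratio exceeded 0.6. This held for 43 of 88 most upstream starts (48.9%, 38.1 to 59.8%), 132 of 418 other starts (31.6%, 27.1 to 36.3%), and 50.5% of the starts of genes with 1 group (49.8 to 51.1%). Median GC content was 58.5%, 55.0% and 59.3%. Windows of neighbouring starts overlap where these lie closer than the window. Among starts at least 1000 bases from any other of the gene, 51.9% of the most upstream and 16.1% of the others were CpG-rich.

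Most genes mixed both kinds of start. In 74 of 88 genes some starts were CpG-rich and some not, in 11 none was, and in HNRNPF, PTCH1 and UBE2D3 all were, the latter 2 named after their values were seen. The first start was CpG-rich and the last not in 36 genes, and the reverse held in 12. In GHR starts 1 to 3, before the gap of 123 kb, were CpG-rich with 59.3% to 70% GC, and starts 4 to 9 were not, with 39% to 47% GC. CREM likewise had CpG-rich windows at starts 1 and 2 only, with 65.7% and 78% GC. DMD was the reverse, with start 7 as the only CpG-rich one at 64.3% GC against 34.7% to 43.7% at starts 1 to 6. In BDNF starts 1, 6 and 7 were CpG-rich, and in PDE4D starts 2, 3 and 7 were.

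Core promoter motifs were counted on both strands of the same windows. TATAAA occurred in 10.5% of the 506 windows (7.94 to 13.5%), against 11.6% in genes with 1 start group and 10.9% over all 30092 start groups of the 25088 gene names. CCAAT occurred in 30.8% (26.8 to 35.1%), against 35.9% and 34.6%. GGGCGG, which itself contains a CG, occurred in 36.6% (32.4 to 40.9%), against 48.6% and 48.7%. At the most upstream starts GGGCGG occurred in 47.7% of windows and at the others in 34.2%. A match is a run of letters and was not tested as a binding site.

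When set against GENCODE, another gene annotation, 461 of the 506 starts (91.1%, 88.3 to 93.4%) lay within 100 bases of an annotated transcript start, compared with 85.3% in genes with 1 start. Of the reference intron chains of the 88 genes, 84.4% were present in GENCODE, against 89.1%. Of the 202 joined chains, 8 were present (3.96%, 1.73 to 7.65%), against 6.14% in genes with 1 start. They were 2 in DLG2 and 1 each in TCF4, CREM, CD36, KLF7, LDLRAD4 and NRG1. None of the joined chains of DMD, GHR, FOXP1, SORBS2, OPRM1 or PLEKHG5 was present. Joined chains are by definition absent from RefSeq, unlike the reference chains, so their shares in GENCODE are not alike in kind. Whether the joined transcripts exist was not tested.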

How the data were processed

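The 6 libraries were grouped by the labels into 3 with the INS promoter hairpin induced and 3 negative controls. The only file analysed is a merged transcript assembly, whose source and tags are those of Cufflinks, per the file's own columns. Per the submitters' processing notes, TopHat2 and Cufflinks were used with hg19; versions, like alignment and assembly settings, are not given in the sources read. In the deposited file the values are exon positions in bases and text tags, with no count, depth or abundance, so other values such as fold changes, replicate errors and expression tests could not be computed.

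Models were rebuilt from 555595 exon lines with Python 3.11.15, numpy 2.4.6, scipy 1.17.1 and pysam 0.24.0, and figures drawn with matplotlib 3.10.9. The start of a group was the median outer 5′ end of its models, which was identical in 491 of 506 groups and spread over at most 81 bases in the rest. A reference transcript is a model of class = with a RefSeq accession, and a joined model one of class j. Sequence was read from GRCh37, where 98.4% of the 1832 reference introns of these genes were GT-AG, and compared with GENCODE release 44 mapped to that build. Intervals are exact Clopper-Pearson 95% for shares and order-statistic 95% for medians. Start grouping and intron assignment were tested on simulated models.

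The members and the gene lists were chosen with earlier results of these data known, and no p-value is given. Named genes are the 10 with the most start groups, the 5 with the longest and 3 with the shortest span, the 5 with the most joined models, up to 5 with 1 p_id, and up to 4 of each list by start groups; any other name was chosen after its values were seen. Some items that the rule names are not reported here. Alternatives were other thresholds, merging close starts, other sequences, single-name loci and other windows.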

Additional observations from a re-analysis of the deposited data

How the results depend on the processing

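No paired analysis was possible because the file holds nothing that belongs to a single library; the replicate block and leave-one-out fits that had been planned were not run. Of 75 values under alternatives over 15 results, 49 stayed within the interval of the reported value, or for the number of genes within 1.5 times of it, and 26 moved. None of these values can be negative.

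Joining starts closer than 1000 bases left 35 genes, with a median distance of 35659 bases, a span of 155535 bases, a median of 6 p_id values, fewer p_id than starts in 25.7%, a joined model in 71.4% of genes, in 54.3% of most upstream and 31.8% of other groups, and 17.8% of joined models with all introns of their own group. With at least 4 groups there were 285 genes, fewer p_id than groups in 46.4%, and 15.5% with all introns of their own group. With at least 7 groups there were 18 genes, a span of 105575 bases, 6 p_id values, joined models at 55.6% of most upstream groups, 19.0% with all introns of their own group, and CCAAT in 24.8% of windows. Joined models from groups with at least 2 reference transcripts, a setting chosen after seeing the data, gave 21.3%.

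At starts at least 1000 bases from any other, 16.1% of other groups were CpG-rich with a median GC of 48.3%, GGGCGG occurred in 29.0% and TATAAA in 14.3%. In windows of 100 bases before to 50 after, CCAAT occurred in 18.6%, GGGCGG in 30.04% and TATAAA in 3.95%. Each alternative changes the genes, groups or window length that enter the count, and the cause of each move was not tested. Without read counts, depth limits every statement on the use of a start.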
